A study of Mus musculus with 3 samples.

Results

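Pax9, Osr1, Osr2, Msx1 and Msx2 encode transcription factors that palate development depends on. They were taken by symbol, whatever their counts, and are 5 of the 32285 genes counted in 3 droplet-based single-cell RNA libraries of mouse palatal shelves, which grow from the maxillary processes and fuse into the secondary palate. Each library came from wild-type C57BL/6J embryos of 1 stage (E13.5, E14.5 or E15.5, in days of gestation), with the shelves of 3 embryos pooled, dissociated with TrypLE and fixed in methanol. The study's design concerns Wnt signalling and the loss of Pax9, but the libraries described here are all labelled wild type. Each stage is 1 library without a replicate. Stages were therefore not tested against each other, and every interval covers counting error only. The pooled embryos cannot be told apart.

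Pax9 is a paired-box factor of neural crest-derived mesenchyme and of pharyngeal and oral epithelium, and mice without it have a cleft palate and no teeth. Osr1 and Osr2 are related zinc-finger factors. Osr2 is needed for palatal shelf growth and, in the jaw, holds back tooth formation against Msx1 and Bmp4. Msx1 and Msx2 are homeobox repressors that are targets of Bmp signalling. Msx1 sustains Bmp4 in the anterior palate and in tooth buds, and Msx2 acts mainly in the skull vault and in ectodermal organs.

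Pax9 lies on mouse chromosome 12 (chr12:56691767-56712822, plus strand) and Osr1 on the same chromosome at chr12:9570116-9581500, plus strand. Osr2 lies at chr15:35296098-35303305 on the plus strand, Msx1 at chr5:37820485-37824583 and Msx2 at chr13:53466884-53473074, both on the minus strand. These are the gene spans of a GENCODE annotation of GRCm38, the assembly also called mm10, which the submitters' processing notes name.

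The libraries held 5293977 to 11472663 unique molecular identifiers (UMIs, each a tag for 1 captured RNA molecule) in 2079 to 4236 barcodes, with medians of 1614 to 1735 UMIs per barcode. Between 1 and 3 barcode sequences were shared by any pair of libraries. After filtering, 7886 cells were gated by marker genes. The E13.5 library stood apart: 10.4% of its cells (372 of 3567) fell in the mesenchymal lineage, which here joins mesenchymal, osteogenic and chondrogenic cells, against 59.5% at E14.5 (1039 of 1745) and 62.1% at E15.5 (1598 of 2574). Cells with leading neuronal or neural progenitor markers made up 31.8%, 5.27% and 4.86% of the 3 libraries. Inside the lineage the summed level of the 10 mesenchymal markers was 2973, 9143 and 10385 UMIs per 1000000 UMIs of the same cells (CPM) from the earliest to the latest stage, while the 10 neuronal markers together held 622, 332 and 203 CPM. At E13.5, 158 of the 372 lineage cells fell in a sub-cluster led by embryonic globin and neural genes (Hbb-y, Hba-x, Nrxn3, Sox2ot and Rmst), numbered 0, and 69 in a sub-cluster whose leading genes include Tac1, Chga and Scg2, genes of neurons and endocrine cells, numbered 4. Both are left unnamed. Globin markers led in 943, 214 and 255 cells that were spread over many clusters, and these cells are not read as a cell type. Each comparison of E13.5 with a later stage below goes with these differences in makeup, whose part in it was not tested. In sums over cells, fewer expressing cells and less RNA per cell cannot be told apart.

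Pax9 and Msx1 were higher in the lineage at later stages, Osr1 and Osr2 stayed within 1.5-fold of their E13.5 level, and Msx2 was nearly absent at E15.5. Pax9 was counted at 51.2 CPM at E13.5 (64 UMIs, 95% Poisson interval 39.4 to 65.3). At E14.5 it was at 111.9 CPM (345 UMIs, 100.4 to 124.3), and E15.5 gave 141.6 CPM (702 UMIs, 131.3 to 152.5). None of these 3 intervals overlap. The level at E15.5 was 2.77-fold that at E13.5 (95% interval 2.14 to 3.63) and 1.27-fold that at E14.5 (1.11 to 1.44). Beside it, the summed mesenchymal markers given above were also higher in the later libraries.

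Msx1 was counted at 96.7 CPM (121 UMIs, 80.3 to 115.6), 129.4 CPM (399 UMIs, 117.0 to 142.7) and 188.2 CPM (933 UMIs, 176.3 to 200.6) over the same stages. The order was that of Pax9, and again no interval overlapped another. Msx1 at E15.5 was 1.95-fold its E13.5 level (1.61 to 2.37) and 1.45-fold its E14.5 level (1.29 to 1.64). Without the osteogenic and chondrogenic cells the log2 difference between E15.5 and E13.5 was 0.48 in place of 0.95, and that between E14.5 and E13.5 was 0.024. Chondrogenic cells made up 104 of the 372 lineage cells at E13.5 and held Msx1 at 36.5 CPM.

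Osr1 was counted at 37.6, 27.6 and 37.3 CPM in stage order (47, 85 and 185 UMIs). It was lowest at E14.5, and its E15.5 level was 0.993 of that at E13.5 (0.717 to 1.40). Osr2 ran the other way, with 28.8, 42.2 and 33.5 CPM (36, 130 and 166 UMIs) and its highest level at E14.5, 1.46-fold that at E13.5 (1.01 to 2.18). Msx2 was the rarest member in UMIs, with 11, 12 and 2 in all lineage cells of the 3 stages, or 8.79, 3.89 and 0.403 CPM. Its E15.5 level was 0.0459 of that at E13.5 (0.00494 to 0.210), a ratio that rests on 2 UMIs, and all analysed E15.5 cells held 7.

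A fold past 1.5 was used to describe how far a gene moved, among genes with a mean of at least 5 CPM over both libraries. The 3 comparisons share libraries. From E13.5 to E15.5, where 19.1% of all genes were higher by that much and 17.3% lower, 2 of the 4 members that reached this mean were higher (Pax9 and Msx1) and none was lower. From E13.5 to E14.5, of all 5 members, Pax9 was higher and Msx2 lower past 1.5-fold, against 17.3% and 13.9% of all genes. The Msx2 ratio of 0.443 (0.179 to 1.11), from 11 and 12 UMIs, held 1. Between E14.5 and E15.5 none of the 4 passed it in either direction, against 4.74% of all genes higher and 5.5% lower. The medians of the members' log2 differences were 0.58, 0.42 and 0.38 in the same order. The shares of all genes past 1.5-fold were larger in both comparisons with the E13.5 library.

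Holding the mix of cells fixed changed several of these values. Only 4 of 17 lineage sub-clusters had at least 20 cells in each library, and these 4 held 325 of the 372 lineage cells of E13.5, most of them in the unnamed sub-clusters 0 and 4. With the 4 weighted equally, Pax9 was at 39.6, 60.1 and 75.3 CPM and Msx1 at 114, 94.0 and 164 CPM over the 3 stages. The mean of Pax9 kept its order, with a log2 difference of 0.91 between E15.5 and E13.5 in place of 1.45, but of the 4 sub-clusters only sub-cluster 3, led by cell cycle genes, had that order, with 68.7, 82.7 and 141.9 CPM. Pax9 was at 50.8, 30.5 and 55.3 CPM in sub-cluster 0 and at 38.8, 84.0 and 65.8 in sub-cluster 4. In sub-cluster 2, led by cartilage genes, it had no UMI at E13.5 (upper Poisson bound 24.8 CPM) and was then at 43.2 and 38.0.

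The mean of Msx1 at E14.5 was below its E13.5 level, as it was in sub-clusters 3 (148 and 122 CPM) and 4 (233 and 119) but not in 0 (47.7 and 91.4) and 2 (26.9 and 43.2). The mean of Osr2 was highest at E13.5, with 32.8, 25.3 and 20.7 CPM. Of the 4, only sub-cluster 4 had Osr2 highest at E13.5, at 69.8, 14.01 and 6.58 CPM from 9, 2 and 1 UMIs. Elsewhere Osr2 was at 13.9, 15.2 and 24.6 CPM (sub-cluster 0), at 0, 12.3 and 19.0 (sub-cluster 2) and at 47.5, 59.6 and 32.4 (sub-cluster 3). The stage order of each gene in a fixed mix thus differed between sub-clusters, and these levels rest on few UMIs.

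**Figure D1:**
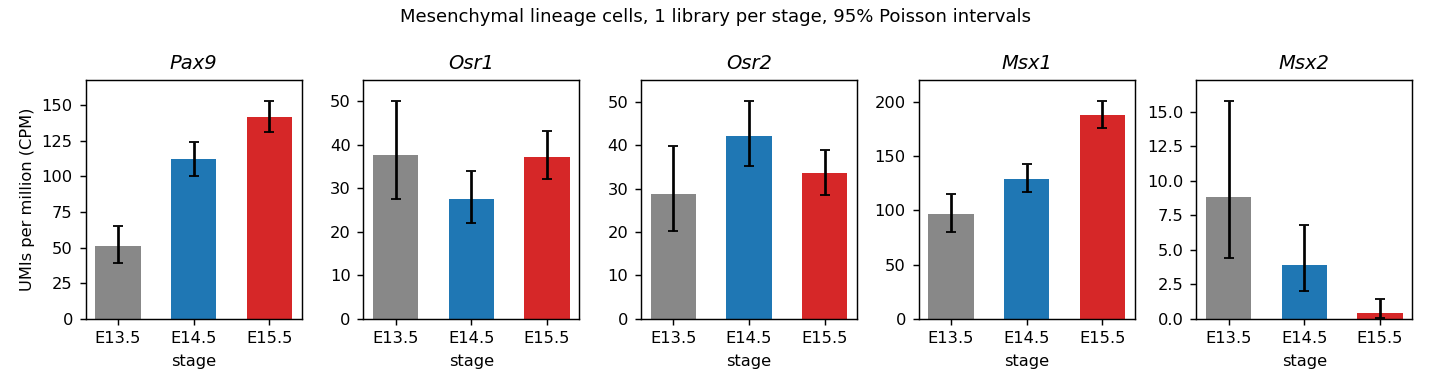
Level of each gene in mesenchymal lineage cells (vertical axes, CPM, a separate scale for each gene) at 3 stages (horizontal axes); bars are the level in 1 library and lines the 95% Poisson interval. Pax9 and Msx1 were highest at E15.5 (141.6 and 188.2), Osr1 was lowest and Osr2 highest at E14.5, and Msx2 was at 0.403 at E15.5.

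Genes of the pathways around these factors were followed in the same cells. Of 15 Bmp pathway genes, which cover ligands, receptors and targets of the signal that induces Msx genes, 1 was higher and 5 were lower past 1.5-fold in E15.5 than in E13.5 cells, where 19.1% of all genes were higher and 17.3% lower. The receptor Bmpr1b was lowest (log2 -2.32, but -0.31 over all cells of the libraries), next to the Bmp antagonist Nog (-1.16), while the inhibitor Smad6 (1.14) and the ligand Bmp4 (0.50) had the largest values. Over all cells of the libraries these were at 2.21 and 1.51, so that Bmp4 passed 1.5-fold there. Values over all cells go with the share of lineage cells, 10.4% at E13.5 and 62.1% at E15.5, whose part was not tested. Hedgehog and Fgf genes were higher for 7 of 11 and lower for none, with a median log2 difference of 0.71 against -0.04 for all genes. Hhip, a hedgehog-binding protein, and Fgf10 led with 2.40 and 1.89, and Smo was at 0.25, which turned to -0.42 with the cell mix held fixed and to -0.05 without osteogenic and chondrogenic cells. Of the Wnt and ectodysplasin genes, 10 of 15 were higher and 2 lower. Wif1 and Wnt16 were at 2.57 and 2.32, and Dkk1 and Lef1 at -2.11 and -0.68, though Lef1 was at 0.011 with the cell mix held fixed and at -0.26 over all cells of the libraries, and Dkk1 at -0.56 over all cells of the libraries.

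Regional factors of the palate gave a mixed picture. Of 5 anterior factors 3 were higher in the E15.5 than in the E13.5 library and none lower: Alx4 (1.61) and Shox2 (1.54) led, and Alx1 was at 0.49, with 1.94 over all cells of the libraries, past 1.5-fold. The posterior factors Meox2 (1.01, with 2.17 over all cells) and Mn1 (1.00, but 0.47 over all cells of the libraries) were higher. Barx1 (-0.65) was lower, which turned to 0.61 over all cells of the libraries, and Tbx22 was at -0.51, with 0.94 over all cells. The values over all cells again go with the unlike shares of lineage cells in the libraries. Among 18 other craniofacial transcription factors 6 were higher and 5 lower, against the same 19.1% and 17.3% of all genes, led by the forkhead genes Foxf1 (1.66) and Foxf2 (1.64), with Hic1 (-1.58) and Dlx2 (-1.44, but -0.37 with the cell mix held fixed) at the other end.

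At the later stages most UMIs of Pax9, Osr1, Osr2 and Msx1 came from the lineage, which held 62.8% and 65.4% of all UMIs. At E14.5 and E15.5 the lineage held 80.0% and 88.3% of the Pax9 UMIs of all analysed cells, 86.7% and 94.9% of the Osr1 UMIs, 90.3% and 89.2% of the Osr2 UMIs and 77.3% and 87.6% of the Msx1 UMIs. At E13.5, where lineage cells were few, the shares were 38.6%, 39.8%, 46.2% and 31.3%, with 12.1% of all UMIs. Of the 166 Pax9 UMIs of E13.5, 38 were in cells led by globin markers, 19 in cells with tied classes and 16 in cells of no class. For the 386 Msx1 UMIs the numbers were 76, 63 and 29. Msx2 differed, with 28.6% of its 7 UMIs in the lineage at E15.5. To compare cells of unlike depth, the share of cells with a UMI was computed as the value expected when each cell is thinned to 1500 UMIs, which left 264, 673 and 1063 lineage cells and dropped 108, 366 and 535 shallower ones.

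Pax9 was then detected in 7.49%, 15.3% and 17.2% of lineage cells in stage order, and Msx1 in 10.1%, 13.97% and 16.9%. Unthinned shares at E15.5 were 25.5% for Pax9 and 21.1% for Msx1. Osr1 was detected in 4.81%, 4.21% and 5.29% and Osr2 in 4.15%, 6.08% and 4.95% of thinned cells. These shares ordered the stages as the CPM did for Pax9, Msx1 and Osr2, while for Osr1 the close E13.5 and E15.5 values changed places. Msx2 was detected in 1.76%, 0.511% and 0.0215%, the last under 0.282%, or 3 in 1063 cells, taken here as the limit of a count of 0.

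Endothelial and myeloid cells served as the class that should lack these genes, with median depths of 2303.5, 2379 and 2029 UMIs per cell in stage order, beside 2320, 1988 and 2226.5 in the lineage. At E13.5 this class held only 22 cells, and Pax9 and Msx1 each had 2 UMIs in 2 of them, or 24.6 CPM (2.97 to 88.7), which was 48.0% and 25.4% of the lineage level. That interval spans the lineage level of Pax9, so at E13.5 Pax9 in the lineage could not be told from its level in these 22 cells. In the class Pax9 was detected in 0.722% of thinned cells at E14.5 and in 0 of 65 cells a day later (upper Clopper-Pearson bound 5.52%), and Msx1 in 0.540% and 2.59%. Of the 10 Msx1 UMIs of these cells at E15.5, 7 came from 1 myeloid cell. Osr1 had no UMI there at E14.5 or E15.5, with upper Poisson bounds of 17.1 and 11.9 CPM, below the lineage intervals of 22.0 to 34.1 and 32.1 to 43.1. In the many neuronal cells of E13.5, Osr1 was detected in 0.591% of 849 thinned neuronal cells, Osr2 in 0.191%, Pax9 in 0.679% and Msx1 in 1.53%. By CPM, Pax9, Osr1, Osr2 and Msx1 in these neuronal cells stood at 12.01%, 15.7%, 10.2% and 20.8% of their lineage level, and the summed mesenchymal markers at 10.3%. In the cells led by globin markers, Pax9 was at 32.7%, 23.3% and 44.4% of its lineage level in stage order. Msx1 was there at 34.6%, 100.6% (65 UMIs) and 45.2%, and the mesenchymal markers at 16.7%, 21.5% and 11.6%.

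Within the lineage, Msx1 was lower in chondrogenic than in osteogenic cells at E15.5. Osteogenic cells, gated by bone genes such as Runx2 and Sp7, held Msx1 at 197 CPM at E15.5 (84 UMIs in 61 cells, 157 to 244) and chondrogenic cells, gated by cartilage matrix genes, at 32.3 CPM (8 UMIs in 56 cells, 13.9 to 63.6). Those intervals do not overlap, and without the osteogenic cell that held 19 of the UMIs the ratio was 0.208 (0.0864 to 0.436). Pax9 was at 61.1 CPM in osteogenic cells (39.9 to 89.5) and at 117 in chondrogenic cells (78.3 to 168). That ratio of 1.91 (1.09 to 3.38) rested on 1 chondrogenic cell with 9 of the 29 UMIs, and without it was 1.35 (0.717 to 2.52). The sub-clusters described below gave no such difference: Pax9 at E15.5 was at 38.0 CPM in sub-cluster 2, led by cartilage genes, and at 41.1 in sub-cluster 10, led by bone genes. At E14.5 the osteogenic level was 133 CPM for Msx1 and 49.1 for Pax9, and the chondrogenic level 73.3 and 88.0, ratios of 0.550 (0.344 to 0.881) and 1.79 (0.971 to 3.52). In chondrogenic cells of E13.5, Pax9 was at 28.4 CPM and Msx1 at 36.5.

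The gated epithelium held Pax9 as well at the later stages, and almost no Osr1 or Osr2. Gated epithelial cells had 2, 14 and 19 Pax9 UMIs at the 3 stages (41, 46 and 112 cells), or 13.8, 75.9 and 37.5 CPM, and Msx1 had 12, 5 and 9 UMIs, or 83.1, 27.1 and 17.8 CPM. Osr1 had 1 UMI and Osr2 had 3 in the epithelial cells of all stages together. As a share of the lineage level, Pax9 in epithelium was at 27.1%, 67.8% and 26.5%, while the summed mesenchymal markers were at 2.79%, 2.55% and 3.79%. Msx1 was at 85.9%, 20.9% and 9.45%. In endothelial and myeloid cells Pax9 was at 48.0%, 8.29% and 0%, and Msx1 at 25.4%, 3.58% and 17.2%, of the lineage level. Pax9 in E13.5 epithelium and Msx1 in E15.5 epithelium could not be told from the class that should lack these genes, since the intervals overlapped. That class level rested on 2 Pax9 UMIs at E13.5 and on 10 Msx1 UMIs at E15.5, 7 of them from 1 myeloid cell. These 2 epithelial levels are therefore not read as expression, although both were above the mesenchymal markers. Pax9 was detected in 6.82% and 5.45% of thinned epithelial cells at the later stages.

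Clusters of all cells split the epithelium into parts that differed in these genes. A cluster led by keratin genes (Krt5, Krt14, Krt15 and Trp63; 253 cells), of stratified type by those genes, held Pax9 at 92.2, 133 and 60.6 CPM in stage order (7, 22 and 35 UMIs) and Msx1 at 13.2, 48.5 and 20.8 CPM. The 3 Pax9 intervals (37.1 to 190.0, 83.5 to 201.7 and 42.2 to 84.3) overlap. A cluster led by Bpifa1, Lypd2 and Cbr2 (150 cells), genes of nasal and airway epithelium, had no Pax9 UMI in its 10 cells of E13.5 (upper Poisson bound 84.7 CPM) and held Pax9 at 108 CPM at E14.5 (68.6 to 162) and at 22.3 at E15.5 (11.5 to 39.0). Its Msx1 level was 68.9, 65.9 and 31.6 CPM in stage order (3, 14 and 17 UMIs). At E15.5 Msx1 in neither cluster could be told from the 32.3 CPM of endothelial and myeloid cells, since the intervals overlapped. Of the 10 Msx1 UMIs in that class, 7 came from 1 myeloid cell. The intervals of the keratin cluster and of that class also overlapped at E13.5 (24.6 CPM in the class, from 2 UMIs).

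A further cluster with Epcam, led by the pituitary hormone genes Pomc and Cga (422 cells), was low in Pax9. Its Msx1 interval lay above that of the keratin cluster at E15.5 (113 to 221 against 10.7 to 36.3). The 2 intervals overlapped at E13.5 (61.3 to 113 against 0.334 to 73.4, the latter from 1 UMI) and at E14.5. It held 4, 1 and 2 Pax9 UMIs, or 7.67, 3.53 and 8.67 CPM, and 44, 12 and 37 Msx1 UMIs, or 84.4, 42.3 and 160 CPM. At E13.5, 208 of its cells stood beside 20 cells of the keratin cluster, and at E15.5 the numbers were 100 and 179. Mesenchymal markers in the keratin cluster were at 3.10%, 21.9% and 15.6% of the lineage level, in the Bpifa1 cluster at 1.54%, 9.73% and 11.3%, and in the hormone gene cluster at 7.03%, 6.33% and 7.26%.

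**Figure D2:**
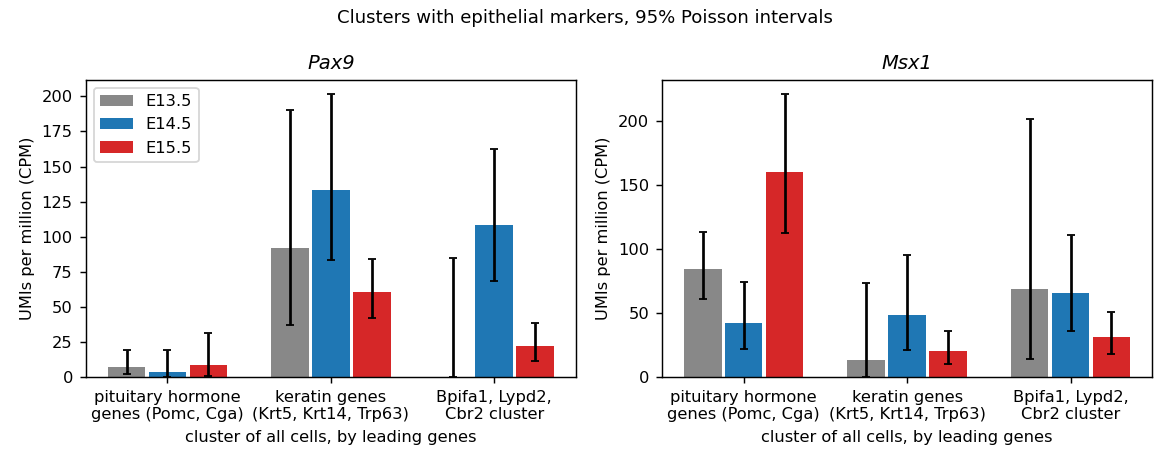
Pax9 (left) and Msx1 (right) in the 3 clusters of all cells that carry epithelial markers (horizontal axis, by leading genes), as CPM (vertical axis) at each stage; bars are the level in 1 library and lines the 95% Poisson interval. Pax9 was high in the keratin cluster (92.2, 133 and 60.6) and low in the hormone gene cluster, where Msx1 was at 84.4, 42.3 and 160. The Msx1 interval of the hormone gene cluster lay above those of the other clusters at E15.5 and overlapped them at E13.5 and E14.5.

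The lineage was then divided into 17 sub-clusters without using the 5 genes, and each gene's level was read in each. These levels are a description, since the cells that define a cluster also give its levels. Pax9 ranged from 6.51 CPM in sub-cluster 5 to 358 in sub-cluster 11, with a median of 99.1, and Msx1 from 16.5 in sub-cluster 9 to 500 in sub-cluster 7, with a median of 82.2. Osr1 ran from 6.22 in sub-cluster 10 to 98.9 in sub-cluster 11, and Osr2 from 5.02 in sub-cluster 14 to 95.1 in sub-cluster 15. The lowest levels rest on 1 UMI of Pax9, 4 of Osr1, 2 of Osr2 and 9 of Msx1, so the folds between lowest and highest are uncertain.

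Pax9 and Msx1 were high together in some sub-clusters and apart in others. In sub-cluster 11 (163 cells, led by Nrg1, P2rx7, Lgr5 and the mast cell genes Hdc, Cma1 and Tpsb2) both were high: Pax9 was at 242 and 418 CPM in the E14.5 and E15.5 libraries, and Msx1 at 279 and 478. Osr1 was at 80.7 and 112 CPM and Osr2 at 88.0 and 91.6, while Osr2 at E14.5 was higher in sub-clusters 7 (152) and 15 (99.8). Over all stages 4 of the 5 genes had their highest or next highest level there.

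Sub-cluster 7 (230 cells, led by Cntn6, Cpa6, Pappa2 and Tfap2b) had the most Msx1, with 542 and 494 CPM at these stages, beside Pax9 at 86.0 and 188. In sub-cluster 9 (199 cells, with the posterior palate factor Meox2 among its leading genes) Pax9 was at 251 and 163 CPM and Msx1 at 26.5 and 9.57. Sub-cluster 14 (133 cells, led by Hsd11b1, Slc24a2, Tnn and Sema3e) held Pax9 at 237 and 266 CPM with Msx1 at 36.5 and 21.8 and Osr2 at 6.08 and 4.36. Over all stages, in these last 2 sub-clusters, the intervals of Pax9 and Msx1 lay on opposite sides of each gene's median over sub-clusters.

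Meox2 itself was at 227 CPM in sub-cluster 9 and at 31.8 or less in each of the others. The anterior factor Shox2 was lowest there, at 21.9 CPM, and highest in sub-cluster 12 at 464 CPM, where Pax9 was at 159 and Msx1 at 82.2. Sub-cluster 10, led by the bone matrix genes Ibsp and Spp1, held Msx1 at 209 CPM, Pax9 at 54.5 and Osr1 at its lowest level. Sub-cluster 2, led by cartilage matrix genes, was below the median of each of 4 members, with Pax9 at 26.5, Msx1 at 36.1, Osr1 at 14.4 and Osr2 at 9.62 CPM. Msx2 was at 7.22 CPM there, from 3 UMIs.

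Over the 17 sub-clusters, which differ in size and depth, Spearman's rho between Pax9 and Osr2 was 0.55, and it was 0.53 over 15 of them within E14.5 and 0.63 over all 17 within E15.5. For Pax9 and Msx1 it was -0.06, with -0.30 and 0.02 within the stages. Both are given as descriptions of these clusters. Sub-cluster 14 departed from the first pattern, with high Pax9 and 2 Osr2 UMIs in 133 cells. Besides sub-clusters 0 and 4, sub-cluster 8 (117 cells, led by pituitary, neural and airway genes such as Cga, Pomc and Bpifa1, with a median of 5484 UMIs per cell) was read as a mixture and is left unnamed. Without it, each stage difference and co-detection ratio of the 5 genes stayed within its own interval.

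**Figure D3:**
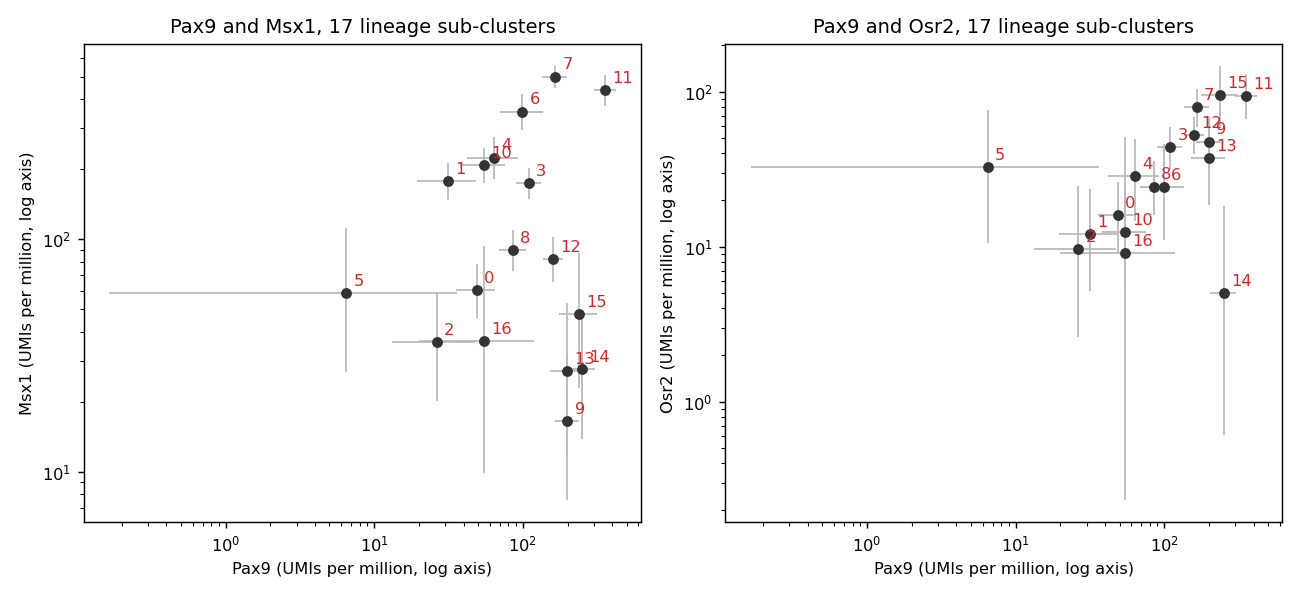
Level of Pax9 (horizontal axes, CPM, log scale) against Msx1 (left) and Osr2 (right) in 17 sub-clusters of the mesenchymal lineage, all stages together; points are sub-clusters with their numbers and lines are 95% Poisson intervals. Sub-clusters 9, 13 and 14 have high Pax9 with little Msx1, 7 and 11 have the most Msx1, and sub-cluster 14 has the least Osr2 (5.02).

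Co-detection asks whether cells with a UMI of a first gene hold the second more often than cells without. At E14.5 Osr2 was detected in 12.3% of thinned cells with Pax9 (12.6 of 103.0 cells expected, 95% interval 6.62 to 20.2) and in 4.97% of cells without it, a ratio of 2.47 (1.26 to 4.70). At E15.5 the shares were 8.61% and 4.19%, a ratio of 2.05 (1.11 to 3.67). Among the 6 pairs without Msx2, this was the pair whose interval excluded 1 at both stages. Thinned to 1000 UMIs, the E15.5 interval (0.850 to 4.09) held 1. Of the 3 members set against Pax9, Osr2 alone passed a ratio of 1.5, which 6.84% of 8631 genes did at E14.5 and 3.05% of 8524 at E15.5.

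Part of this went with the sub-clusters. If the genes fell independently over all cells, 6.26 cells with both would be expected at E14.5 and 9.03 at E15.5. From the shares of each sub-cluster the numbers were 7.67 and 11.8, beside 12.6 and 15.7 found. The intervals of the shares, given above for E14.5 and 4.97% to 13.7% for E15.5, span these sub-cluster values, so the excess over them lay within counting error. In unthinned counts 54 lineage cells at E14.5 and 70 at E15.5 held both. At E13.5 only 2.38 thinned cells did, and the ratio of 3.44 spans 0.291 to 10.1.

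For the other pairs the interval of the thinned ratio held 1 at both stages. Msx1 in cells with against without Pax9 stood at 0.941 (0.520 to 1.62) and then at 0.924 (0.617 to 1.33), so that at E15.5 a ratio above 1.33 or below 0.617 lies outside counting error. Osr1 against Pax9 was at 1.14 and 1.25, Msx1 against Osr2 at 1.55 and 1.22, and Msx1 against Osr1 at 0.791 and 0.805. Without thinning the last ratio was 1.71 (1.29 to 2.18). The related genes Osr1 and Osr2 had ratios of 1.58 (0.368 to 5.02) and 1.79 (0.595 to 4.33), from 2.66 and 4.77 expected cells with both. These intervals are too wide to tell whether the paralogs share cells.

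Few cells held several members at this depth. Any of the 5 was detected in 25.8%, 33.7% and 37.5% of thinned lineage cells in stage order, and at least 2 in 2.39%, 5.75% and 6.16%. Without thinning, at least 2 were found in 6.18%, 12.8% and 13.95% of lineage cells.

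**Figure D4:**
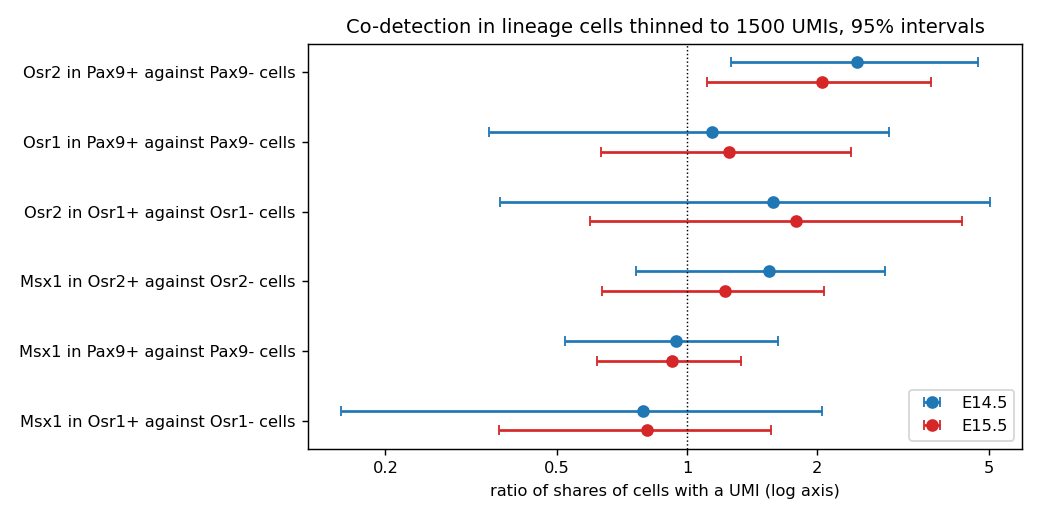
Frequency of the second gene in lineage cells with (+) against without (-) the first gene, as a ratio (horizontal axis, log scale) for 6 pairs at E14.5 and E15.5, after thinning to 1500 UMIs; points are ratios and lines 95% counting intervals. The lines of Osr2 against Pax9 lie above 1 at both stages (2.47 and 2.05), and the lines of the other pairs cross 1.

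All genes detected in at least 5% of thinned lineage cells at both stages were ranked by the lower of their E14.5 and E15.5 ratios to each member. For Pax9 the first of 4912 genes was Slc25a21, a mitochondrial oxodicarboxylate carrier, detected in 16.1% of cells with Pax9 and 5.93% of cells without at E14.5, a ratio of 2.72 (1.51 to 4.63), and in 22.6% and 7.85% at E15.5, a ratio of 2.88 (1.99 to 3.98). Slc25a21 is the neighbour of Pax9: it spans chr12:56712634-57197472 on the minus strand, and its annotated end overlaps that of Pax9 by 189 bases. The genes converge on opposite strands. The sources used here name Cell Ranger but no strand setting, and the part of reads in the overlap in these ratios was not tested. Slc25a21 was highest in sub-clusters 11 (413 CPM) and 15 (385 CPM), where Pax9 was at 358 and 238.

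The only other gene within 500 kb of Pax9 that was detected widely enough, Mbip, had ratios of 1.02 and 0.983. Neighbours of Osr2 and Msx1 gave ratios of at most 1.54 and 2.06 at either stage, and none passed 1.5 at both. Next after Slc25a21 for Pax9 came the transcription factor genes Tfap2b (1.96 and 2.22) and Dach1 (1.71 and 1.86), then Clmn (1.64 and 1.67) and Map7d1 (1.65 and 1.63). The intervals of Map7d1 held 1 at both stages, and those of Tfap2b and Clmn at E14.5.

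For Msx1 the first gene was Tfap2b. These ratios chose the genes and are given as a description. Tfap2b, an AP-2 factor of neural crest mesenchyme, was detected in 16.4% of cells with Msx1 and 3.78% of cells without at E14.5, a ratio of 4.35 (2.11 to 7.52), and in 17.7% and 3.73% at E15.5, a ratio of 4.73 (2.96 to 7.29). Sostdc1, a secreted inhibitor of Bmp and Wnt signals that limits tooth number, followed with 2.40 and 3.34. Lrrc7 (2.41 and 2.19), the activin subunit gene Inhba (2.28 and 2.12) and the protease gene Pappa2 (2.02 and 2.62) came next. Tfap2b was at 269 CPM in the Msx1-rich sub-cluster 7 and at 162 in sub-cluster 11.

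For Osr2 the third of 4913 genes was Pax9 itself, with ratios of 2.16 and 1.81. Before it came Prex2 (2.65 and 1.97) and AW551984 (2.05 and 1.83), and after it Prxl2a (1.87 and 1.72) and Synpo2 (2.88 and 1.72). The intervals of AW551984 and Prxl2a held 1 at both stages, and those of Prex2 and Synpo2 at E15.5. For Osr1 the genes included Galnt16 (2.88 and 1.94), Tex261 (2.14 and 1.89), Pigp (2.01 and 1.78) and the myelin gene Pmp22 (2.52 and 1.74). Only 28.3 and 56.3 thinned cells held Osr1, and the intervals of these 4 held 1 at both stages.

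**Figure D5:**
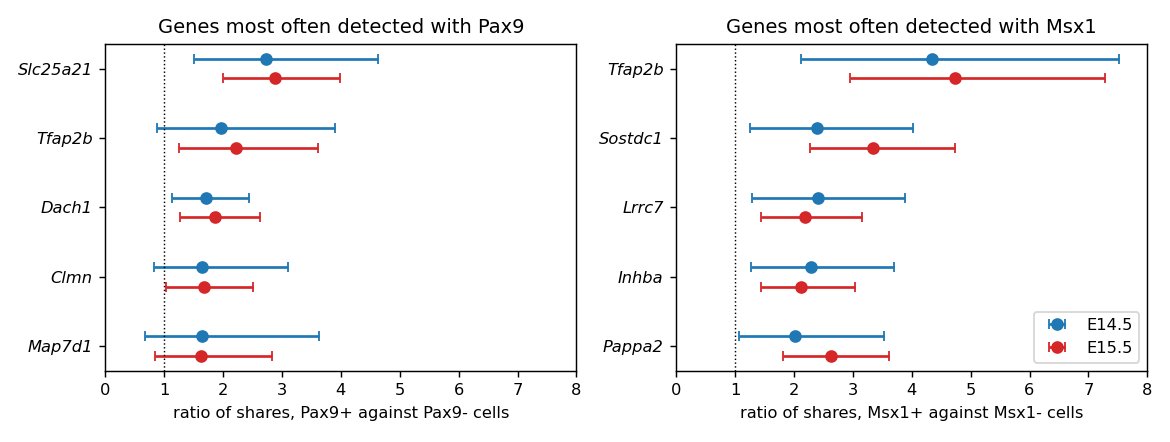
The 5 genes most often detected with Pax9 (left) and with Msx1 (right), as the ratio of their frequency in lineage cells with (+) against without (-) the member (horizontal axes), at E14.5 and E15.5 after thinning; points are ratios and lines 95% counting intervals. Slc25a21 leads for Pax9 (2.72 and 2.88) and Tfap2b for Msx1 (4.35 and 4.73).

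The pathway lists were read in the same way, naming genes past 1.5 in the same direction at both stages. With Msx1, 3 of 11 other craniofacial factors had higher ratios (Six2, Foxf1 and Tfap2b), as were the hedgehog target Gli1 and the Wnt effector Lef1, against 1.05% of 8186 genes. These are 5 of the 51 list genes read. The intervals of Foxf1 (0.678 to 5.03 and 0.756 to 3.19) and Gli1 (0.967 to 4.75 and 0.828 to 3.29) held 1 at both stages, and those of Six2 and Lef1 held it at E14.5. Meox2 had lower ratios with Msx1, 0.465 (0.0449 to 1.46) and 0.275 (0.0281 to 0.908), as were 2.26% of genes. No Bmp gene passed with Msx1, of 12 read: Bmp4 was at 1.05 and 1.34.

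With Pax9, of 51 list genes, Tfap2b passed upward and Bmpr1b and Fgf7 downward, against 0.635% and 1.34% of genes. The intervals of Bmpr1b and Fgf7 held 1 at both stages, and that of Tfap2b (0.876 to 3.90) at E14.5. The anterior factor Shox2 was at 1.53 and 1.45 and the posterior factor Barx1 at 1.39 and 1.64, so that neither passed at both stages. With Osr2, Axin2, Six4 and Lhx8 passed upward and Bmpr1b downward (background 1.59% and 4.35%), with intervals that held 1 at both stages. With Osr1, 5 of 51 list genes had lower ratios (Gli1, Dkk3, Meox2, Six4 and Eya1; background 5.27%) and none higher (1.94%), but the intervals of all 5 held 1 at both stages.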

How the data were processed

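The authors deposited 1 matrix of whole UMI counts per library, with genes by symbol. The submitters' processing notes name Cell Ranger 6.1.2 and the build mm10. The genes and lists were chosen with earlier results of these data known.

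Cells needed 500 genes (544, 304 and 473 barcodes failed) and at most 20% mitochondrial UMIs (0 failed). Scrublet, run in scanpy 1.11.5, called only 0, 4 and 1 doublets, 0.0617% of cells, and had not worked. The cells it scored highest were removed instead, at a rate of 0.8% for each 1000 barcodes (125, 30 and 66 cells). A cell joined a class when at least 3 of its 10 markers had a UMI and no other class had as many. Of 3009 lineage cells, 18.5% led by 1 marker and 7.11% held exactly 3. Sub-clusters are Leiden clusters (resolution 1, 2000 variable genes, 30 components, 15 neighbours, igraph 0.11.9), without correction between libraries.

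Levels are CPM with exact Poisson 95% intervals, folds carry exact conditional intervals, and log2 differences have 1 CPM added. Thinned shares are exact expected values over all thinnings to 1500 UMIs (scipy 1.17.1), so cell numbers need not be whole, and their intervals are Clopper-Pearson intervals. Intervals of co-detection ratios use these numbers rounded. The interval and thinning code was tested on simulated data. Named genes are the 5 factors, the 5 genes most co-detected with each (Msx2 had too few UMIs), and the 2 largest and 2 smallest E15.5 to E13.5 differences per list; a few genes that this rule names are not reported here. Genes leading clusters and list genes named for co-detection were chosen after their values were seen. UMIs of unlike genes are not scaled for length or capture, so levels are compared within a gene.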

Additional observations from a re-analysis of the deposited data

Results flagged for a closer look

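Msx1 differed between stages in opposite directions in the lineage and in gated epithelial cells. Against E13.5 the lineage fold was 1.34 and then 1.95 at the later stages. With the cell mix held fixed the lineage log2 difference at E14.5 was -0.27, and without osteogenic and chondrogenic cells 0.024, so the opposite direction at E14.5 was lost. At E15.5 the lineage values were 0.52 and 0.48. The epithelial fold was 0.326 (0.0900 to 0.995) and 0.214 (0.0797 to 0.554), from 12, 5 and 9 UMIs. The epithelial E15.5 level could not be told from that of endothelial and myeloid cells (17.8 against 32.3 CPM), since the intervals overlapped. Of the 10 Msx1 UMIs in endothelial and myeloid cells, 7 came from 1 myeloid cell. With epithelium taken by clusters the fold was 0.687 (0.429 to 1.09) and 0.655 (0.445 to 0.971). These clusters include the hormone gene cluster, which held 44 of their 48 Msx1 UMIs at E13.5. All 12 Msx1 UMIs of gated epithelial cells at E13.5 lay outside the cells of stratified type. With a lead of 2 markers the E14.5 level was 7.39 in place of 27.1 CPM. The difference between the classes was not tested, since each stage is 1 library. The makeup of gated epithelial cells differed too, with 9 of 41 of stratified type at E13.5 and 68 of 112 at E15.5. In the hormone gene cluster Msx1 was at 84.4 CPM in the E13.5 and 160 CPM in the E15.5 library. The part of makeup in the epithelial fold was not tested.

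Barcodes with under 500 genes, which no comparison uses, held UMIs of these genes above the 3 that a count of 0 allows. At E13.5 they held 7 of Osr1, 5 of Osr2 and 12 of Msx1. The E14.5 barcodes held 13 of Pax9, 8 of Osr1, 6 of Osr2 and 19 of Msx1. Those of E15.5 held 26 of Pax9, 7 of Osr2 and 24 of Msx1.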

How the results depend on the processing

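No paired analysis was possible because each stage is 1 library. Of 210 stage differences recomputed for the 5 genes, 188 stayed within the counting interval first given, as did 95 of 96 co-detection ratios, 58 of 61 class levels, 4 of 4 highest sub-cluster levels and 233 of 264 differences of named list genes. The log2 differences to E13.5, at E14.5 and then E15.5, over all cells of each library were 2.38 and 2.63 for Pax9, 0.75 and 1.104 for Osr1, 1.82 and 1.58 for Osr2, 1.47 and 1.88 for Msx1, and 0.74 and -0.41 for Msx2; lineage cells were 10.4% of the E13.5 cells. Without osteogenic and chondrogenic cells Msx1 was at 0.024 and 0.48. With the cluster mix held fixed, a mean over 4 sub-clusters that differed in order, Pax9 was at 0.59 and 0.91, Osr2 turned to -0.36 and was at -0.64 by E15.5, and Msx1 turned to -0.27 and was at 0.52, with 0.80 between E14.5 and E15.5. With 0.1 CPM added, Msx2 was at -2.99 from E14.5 and -4.14 from E13.5 to E15.5, and with 5 CPM added the latter was -1.35. Of named genes, Barx1 turned to 0.61 and Tbx22 to 0.94 over all cells, Lef1 to 0.011 and Smo to -0.42 with the mix fixed, and Smo to -0.05 without osteogenic and chondrogenic cells. Over all cells Bmp4 (1.51), Alx1 (1.94) and Smo (0.75) passed 1.5-fold, Lef1 (-0.26) did not, and Smad6 (2.21), Meox2 (2.17), Foxf1 (2.95), Fgf10 (2.69), Wif1 (3.38) and Dlx2 (-2.39) lay farther from 0. Bmpr1b (-0.31) and Dkk1 (-0.56) over all cells and Dlx2 (-0.37), Alx4 (0.60), Hhip (1.67) and Fgf10 (1.14) with the mix fixed lay closer to 0. With no filter on low values 8.18% of genes were higher and 9.13% lower between E14.5 and E15.5. The ratio of Msx1 with Osr1 at E15.5 was 1.71 (1.29 to 2.18) without thinning. Among classes, Msx1 in E14.5 epithelium was at 7.39 CPM and Pax9 in E14.5 neuronal cells at 21.8 CPM when a class had to lead by 2 markers. Msx1 in E15.5 epithelium was at 49.0 CPM with cells taken by clusters, the hormone gene cluster among them. Causes were not tested. The gate without globin markers, the lead of 2 markers, the removal of sub-cluster 8, epithelium by clusters and the removal of the highest cell of a class were chosen after seeing the data. Lineage cells left after thinning numbered 264 at E13.5 against 673 and 1063, which limits co-detection there.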

Other observations

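The genes least often detected with a member were read after their values were seen. Sox6, a factor of cartilage formation, was detected in 6.49% of cells with Osr2 and 38.0% of cells without at E14.5, a ratio of 0.171 (0.0401 to 0.533), and in 5.61% and 28.1% at E15.5, a ratio of 0.1995 (0.0418 to 0.564). Of 8186 genes, 4.35% were lower with Osr2 past 1.5-fold at both stages. Sox6 was among the leading genes of sub-cluster 1, with Erg and Bmp5, and not among those of sub-cluster 2, led by cartilage genes. With Osr1 the Sox6 ratios were 0.322 and 0.359, both with intervals below 1. For Pax9 the potassium channel gene Kcnd2 came lowest, with 0.361 and 0.269, and for Msx1 Galntl6, with 0.391 and 0.396.

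Neuronal cells of E14.5 held 20 Pax9 UMIs in 8 of 92 cells, or 62.9 CPM. Of these UMIs, 11 came from 1 cell with 65518 UMIs in all, and the 125 neuronal cells of E15.5 held none.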
